A study of Mus musculus with 19 samples.

Results

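The genes described here act in the signalling chain by which a muscle fiber responds to loss of its nerve. They are Hdac4, Hdac9, Dach2, Runx1, Gadd45a, Cdkn1a and Ncam1, and they were taken by gene name from the array, where these 7 of 30214 named genes carried 15 of the 39429 gene probes. All 15 probes passed the filter on dim signals, among 32026 probes tested in all. RNA was from the quadriceps of 180-day-old male mice of the C57Bl6J strain. AR113Q mice are knock-in models of spinal and bulbar muscular atrophy (SBMA), a neuromuscular disease, and express an androgen receptor with an expanded polyglutamine tract. Wild-type mice of the same strain were the controls (CTR). Because the receptor is made from its own locus, muscle fibers and the motor neurons that reach them both carry the mutation, and an effect of the one cannot be told apart from an effect of the other here. From 40 days of age the mice ate either normal chow (NCD) or high-fat food (HFD). On NCD there were 5 CTR and 5 AR113Q samples, and on HFD there were 4 CTR and 5 AR113Q samples, each read on its own single-color array. The sources used here do not say that each sample is the RNA of 1 mouse, so the p-values measure the spread between these samples.

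In innervated muscle, electrical activity keeps class IIa histone deacetylases such as HDAC4 and HDAC9 phosphorylated and out of the nucleus, where they would hold back MEF2 factors. After denervation HDAC4 accumulates in the nucleus and represses Dach2, itself a repressor of myogenin, so that myogenin and the acetylcholine receptor genes are released. RUNX1 is a transcription factor that denervated fibers switch on, GADD45A is a stress protein that reshapes the nuclei of denervated fibers downstream of HDAC4, CDKN1A is the p53-responsive inhibitor of cyclin-dependent kinases, and NCAM1 is an adhesion molecule that spreads from the neuromuscular junction over the denervated fiber.

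Levels are given as a relative level, the log2 signal of a probe minus the 75th percentile of its array, so that 0 is the 75th percentile and 1 unit is a doubling. A probe was called when its adjusted p was below 0.05 in limma, with Benjamini-Hochberg adjustment over all 32026 probes tested. Levels of different probes were not set against each other, because probes bind with different strength. Between 67.07% and 80.15% of probes were well above background on an array, and the median correlation of an array with the others of its group was 0.98 to 0.99. The skeletal muscle markers Acta1, Ckm, Des, Mylpf, Tnnt3, Myh4 and Myh1 were well above background on all 19 arrays. Their log2 summed relative level was lower in AR113Q (10.6 to 10.94 over both diets) than in CTR (10.98 to 11.28). Of the 7, 5 were called lower on each diet, against 9.28% of all probes on NCD and 9.93% on HFD. Des was called higher on HFD (0.32, adjusted p = 0.034). The calls depended on the scaling: 2 were lower on each diet after quantile normalization, 1 on each with median centring, and 0 on NCD and 1 on HFD with normexp background correction. Markers of leukocytes (8 genes), adipocytes (6), endothelium (5) and red cells (3) had no member called between genotypes on either diet, and of 5 fibroblast markers Lum was called higher (0.28 on NCD and 0.42 on HFD).

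The probes called between genotypes belonged to Runx1, Gadd45a, Cdkn1a and Ncam1, the last on HFD alone. On NCD, 4 of the 15 probes were called between AR113Q and CTR, against 17.6% of all probes tested, and all 4 were higher in AR113Q (8.29% of all probes were called higher). They belong to 3 genes, Runx1, Gadd45a and Cdkn1a. On HFD, 7 of 15 probes were called, against 17.9% of all probes, and all 7 were higher in AR113Q (8% of all probes). These belong to the same 3 genes and to Ncam1. The median difference of the 15 probes between AR113Q and CTR was 0.40 on NCD and 0.55 on HFD on the log2 scale, where the median of all probes was -0.053 and -0.070. The NCD and HFD comparisons of genotype share no arrays. They do share the spread estimated over all 19 arrays, and the slides of the arrays, so they are not fully independent.

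**Figure D1:**
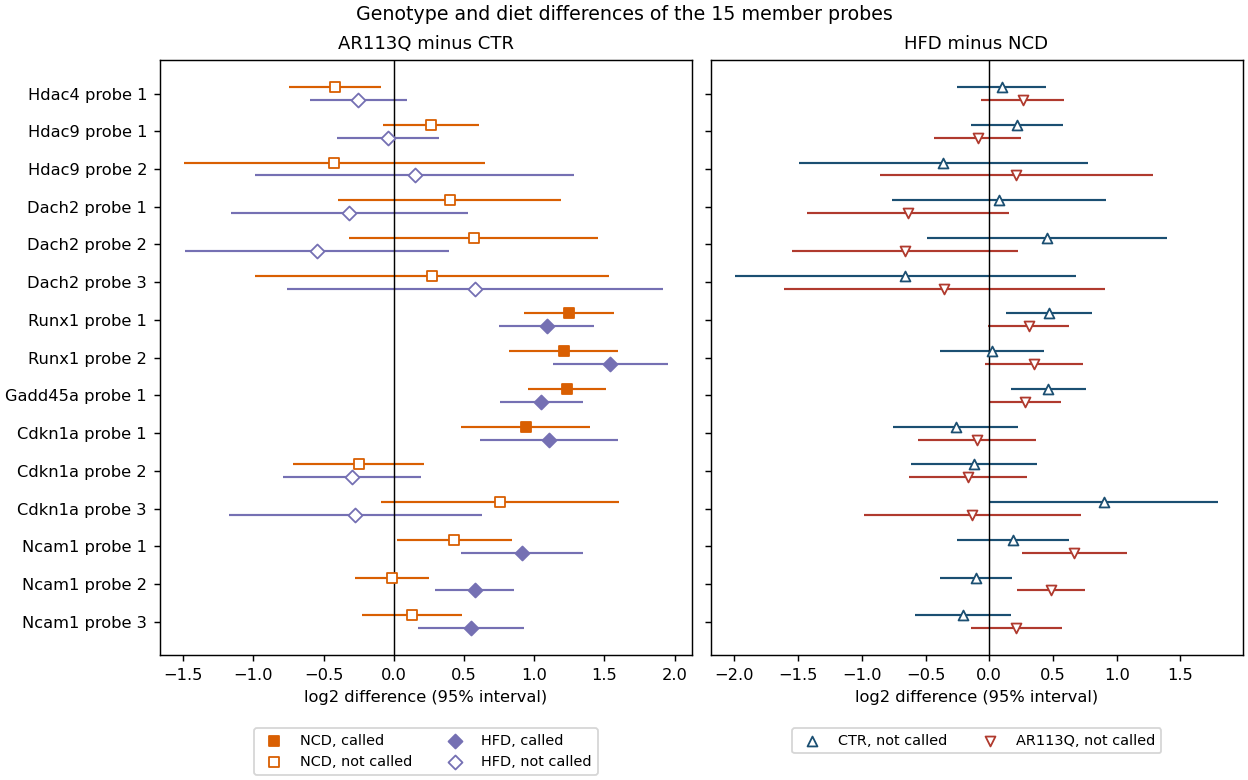
Differences in relative level for each of the 15 probes on the log2 scale, with bars for the 95% interval; the left panel gives AR113Q minus CTR on each diet and the right panel gives HFD minus NCD in each genotype. Filled symbols mark called probes: 4 on NCD and 7 on HFD in the left panel, and none in the right panel.

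Among the deacetylases, Hdac4 had a single probe, in its RefSeq transcript at chr1:93829554-93829613 on the minus strand of mm9. Its relative level was 1.40, 1.0, 0.99, 1.55 and 1.62 in the 5 CTR-NCD samples and 0.76, 0.79, 0.66, 0.99 and 1.27 in the 5 AR113Q-NCD samples. It was 1.51, 1.55, 0.93 and 1.64 in CTR-HFD and 1.08, 1.21, 1.22, 1.22 and 1.04 in AR113Q-HFD. Groups overlapped on both diets, the overlap on NCD coming from the lower CTR samples (replicates 2 and 3) and from AR113Q replicate 5, and that on HFD from CTR-HFD replicate 3, which was far below the other 3 of its group. The difference was -0.42 ± 0.15 (SE) on NCD (95% interval -0.74 to -0.091, adjusted p = 0.0748 in limma) and -0.25 ± 0.16 on HFD (-0.60 to 0.093, adjusted p = 0.342). Arrays were hybridized on 5 slides, each with several groups. With slide as a block the NCD difference was -0.42 again and the probe was called (adjusted p = 0.0302), and AR113Q was below CTR on 5 of 5 slides (differences of -0.63 to -0.21). The call on NCD was also gained without CTR-NCD replicate 2 (adjusted p = 0.0439), CTR-NCD replicate 3 (0.0406), AR113Q-NCD replicate 5 (0.035) or CTR-HFD replicate 3 (0.0364). The other 15 of the 19 fits with an array left out did not call the probe (adjusted p up to 0.182 in limma). Nor did 10 of the 14 other alternatives (up to 0.274).

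Hdac9 was read by a pair of probes that lie 264.3 kb apart and list different transcripts. Probe 1 (chr12:35056405-35056464, minus strand of mm9) lists transcript variant 2. Probe 2 lists variant 1 and is shown because it is the readout that could separate the transcripts, its 60 bases at chr12:34792084-34792143 on the minus strand of mm9 being given in the file of the array.
Hdac9 probe 2: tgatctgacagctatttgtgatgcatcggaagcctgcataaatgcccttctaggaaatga
Probe 2 was well above background on only 4 of 19 arrays (1 CTR and 2 AR113Q arrays on NCD, 0 CTR and 1 AR113Q array on HFD), so variant 1 was not well above background on most arrays and its differences carry little information (-0.42 on NCD, adjusted p = 0.658, and 0.15 on HFD, adjusted p = 0.895). Probe 1 was well above background on all 19 arrays. It read -2.03, -2.36, -2.52, -2.65 and -2.39 in CTR-NCD and -2.02, -1.93, -1.98, -2.19 and -2.50 in AR113Q-NCD. It read -2.10, -2.30, -2.24 and -2.05 in CTR-HFD and -1.99, -2.26, -2.84, -1.90 and -2.08 in AR113Q-HFD. The groups overlapped on both diets. The genotype difference was 0.27 ± 0.16 on NCD (95% interval -0.075 to 0.61, adjusted p = 0.312) and -0.042 ± 0.17 on HFD (-0.40 to 0.32, adjusted p = 0.907).

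**Figure D2:**
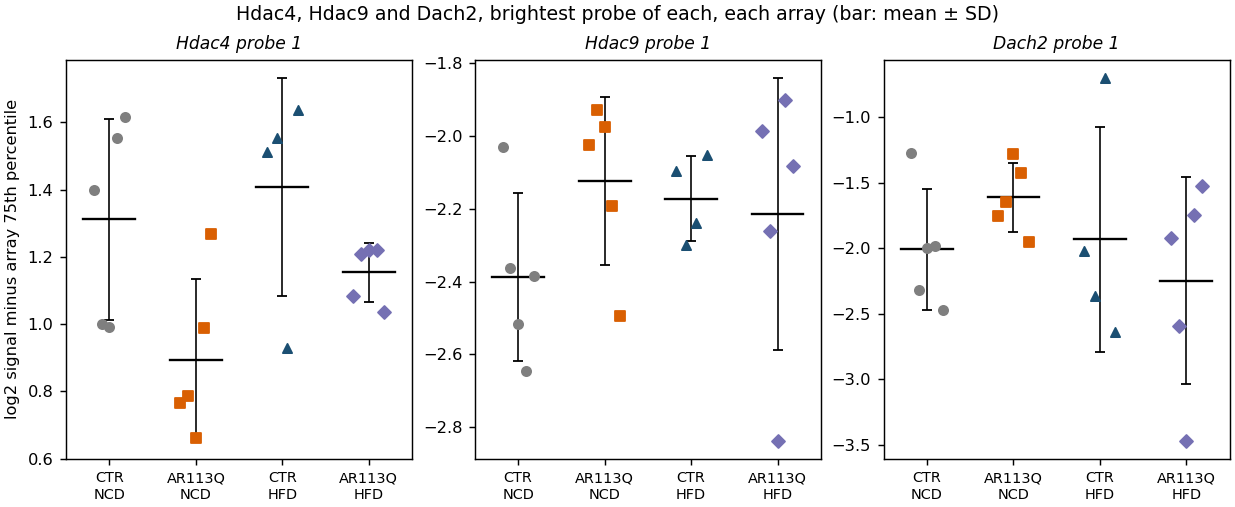
Relative level (log2 signal minus the 75th percentile of the array, vertical axis, scaled separately in each panel) of the brightest probe of Hdac4, Hdac9 and Dach2 on each array of the 4 groups; bars are the mean and SD. Hdac4 means were 1.31 (CTR) and 0.89 (AR113Q) on NCD, and 1.41 (CTR) and 1.15 (AR113Q) on HFD, and single arrays such as CTR-HFD replicate 3 (0.93 for Hdac4, -0.71 for Dach2) lay far from their group.

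Dach2, the repressor between HDAC4 and myogenin, had 3 probes on chromosome X and none was called. Probe 1, which lists transcript variant 2, read -1.28, -2.32, -2.0, -1.98 and -2.47 in CTR-NCD and -1.76, -1.64, -1.28, -1.43 and -1.95 in AR113Q-NCD. It read -2.02, -2.37, -0.71 and -2.64 in CTR-HFD and -1.92, -2.59, -3.47, -1.74 and -1.53 in AR113Q-HFD. The spread within the HFD groups was wide, with CTR-HFD replicate 3 the highest of all 19 samples and AR113Q-HFD replicate 3 the lowest. The difference was 0.40 ± 0.38 on NCD (95% interval -0.40 to 1.19, adjusted p = 0.557) and -0.32 ± 0.40 on HFD (-1.16 to 0.52, adjusted p = 0.665). Without CTR-HFD replicate 3 the HFD difference was 0.092, so its sign rested on that array. Probes 2 and 3 both list variant 1, and probe 3 was well above background on 16 of 19 arrays. Their NCD differences were 0.57 and 0.27 (adjusted p of at least 0.428), and their HFD differences were -0.55 and 0.58 (adjusted p = 0.47 and 0.61).

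The largest difference of a single probe was that of Runx1 probe 1 on NCD and of Runx1 probe 2 on HFD. The other Runx1 probe was below Gadd45a on NCD (1.21 against 1.23) and below Cdkn1a probe 1 on HFD (1.09 against 1.11). Both Runx1 probes list the same 4 RefSeq transcripts and lie 1.372 kb apart on chromosome 16, so neither separates the alternative starts of the gene. Probe 1 (chr16:92605785-92605844, minus strand of mm9) read -3.33, -2.93, -3.11, -3.41 and -3.31 in CTR-NCD and -2.04, -1.99, -2.14, -1.99 and -1.71 in AR113Q-NCD. It read -3.04, -2.65, -2.24 and -3.07 in CTR-HFD and -1.55, -1.66, -1.72, -1.97 and -1.41 in AR113Q-HFD. Every AR113Q sample was above every CTR sample on the same diet, and also across diets. On NCD the mean relative level was -3.22 ± 0.19 in CTR (SD, n = 5) and -1.97 ± 0.16 in AR113Q (n = 5). On HFD it was -2.75 ± 0.39 in CTR (n = 4) and -1.66 ± 0.21 in AR113Q (n = 5). The level was 2.37-fold higher in AR113Q on NCD (log2 difference 1.25 ± 0.15, 95% interval 0.93 to 1.56, adjusted p = 2.66e-05) and 2.13-fold higher on HFD (1.09 ± 0.16, 0.75 to 1.43, adjusted p = 0.000154).

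Runx1 probe 2 gave the same order. It read -3.20, -2.75, -3.04, -3.21 and -3.51 in CTR-NCD and -2.01, -2.04, -2.08, -2.02 and -1.54 in AR113Q-NCD. It read -3.21, -3.05, -2.61 and -3.62 in CTR-HFD and -1.50, -1.67, -1.43, -2.02 and -1.30 in AR113Q-HFD. The AR113Q samples were again all above the CTR samples, by 2.31-fold on NCD (1.21 ± 0.18, adjusted p = 0.000201) and 2.91-fold on HFD (1.54 ± 0.19, adjusted p = 3.94e-05). A difference larger in size than that of probe 1 was found for 1.4% of all probes on NCD and 2.42% on HFD. For probe 2 these shares were 1.56% on NCD and 0.856% on HFD. On single slides the difference of probe 1 was 0.95 to 1.60 on NCD (5 of 5 slides) and 0.52 to 1.66 on HFD (4 of 4). The Runx1 calls depended on the treatment of background. With normexp correction in place of the processed signal, probe 1 on NCD differed by -0.056 and probe 2 by 0.021, and neither was called on either diet. That correction left 5 arrays with a raised floor, namely CTR-NCD replicates 3, 4 and 5, AR113Q-NCD replicate 4 and AR113Q-HFD replicate 1. Once they were dropped, CTR-NCD was left with replicates 1 and 2 alone. Without those arrays the normexp difference of probe 1 was 0.67 on NCD (adjusted p = 0.0259) and 0.66 on HFD (adjusted p = 0.00394), and with the local background subtracted and an offset of 50 added it was 0.70 on NCD (adjusted p = 0.000149). Normexp was run with the same offset. Why the difference changed with the treatment of background was not tested. The fit without the raised arrays and the fit with subtraction were added after the data had been seen.

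Gadd45a had 1 probe (chr6:66985376-66985435, minus strand of mm9), well above background on all arrays. Its relative level was 0.13, -0.0071, -0.064, 0.38 and 0.26 in CTR-NCD and 1.33, 1.40, 0.88, 1.5 and 1.77 in AR113Q-NCD. It was 0.65, 0.55, 0.61 and 0.61 in CTR-HFD and 1.51, 1.70, 1.89, 1.5 and 1.66 in AR113Q-HFD. Genotypes did not overlap on either diet, and the 4 CTR-HFD samples were tightly grouped. Gadd45a was 2.35-fold higher in AR113Q on NCD (1.23 ± 0.13, 95% interval 0.95 to 1.51, adjusted p = 9.04e-06) and 2.07-fold higher on HFD (1.05 ± 0.14, 0.75 to 1.35, adjusted p = 6.54e-05). It was called on both diets under every alternative run, including normexp correction, slide as a block and each array left out in turn.

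Cdkn1a was read by 3 probes, of which the brightest was printed as 10 spots on each array. The SD of those spots was 0.034 to 0.13 log2 units on an array, well below the spread between samples. Probe 1 (chr17:29237377-29237436, plus strand of mm9) lists both RefSeq variants and read 0.16, 0.11, 0.16, -0.45 and -0.092 in CTR-NCD and 1.13, 0.80, 1.25, 0.86 and 0.54 in AR113Q-NCD. It read -0.42, -0.44, 0.52 and -0.79 in CTR-HFD and 0.88, 1.05, 0.49, 0.51 and 1.17 in AR113Q-HFD. Groups were apart on NCD, and on HFD they overlapped through CTR-HFD replicate 3 alone. Cdkn1a was 1.92-fold higher on NCD (0.94 ± 0.22, 95% interval 0.48 to 1.40, adjusted p = 0.00608) and 2.15-fold higher on HFD (1.11 ± 0.23, 0.62 to 1.59, adjusted p = 0.00281). Without CTR-HFD replicate 3 the HFD difference was 1.37 (adjusted p = 0.000148). Within slides AR113Q was higher on 5 of 5 slides on NCD and on 3 of 4 on HFD, the remaining slide, that of CTR-HFD replicate 3, giving -0.029.

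Probe 2 of Cdkn1a lists variant 2 only and starts at base 55 of that transcript and lies 9.391 kb upstream of probe 1. It differed by -0.25 ± 0.22 on NCD (95% interval -0.72 to 0.21, adjusted p = 0.52) and by -0.30 ± 0.23 on HFD (-0.79 to 0.20, adjusted p = 0.45). Both bounds on NCD were below the lower bound of probe 1, but the difference between the probes was not tested. With slide as a block the HFD difference of probe 2 was -0.43 and was called lower (adjusted p = 0.0253). Probe 3 lists an Ensembl transcript alone and differed by 0.75 ± 0.40 on NCD (adjusted p = 0.237) and -0.28 ± 0.43 on HFD (adjusted p = 0.734).

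**Figure D3:**
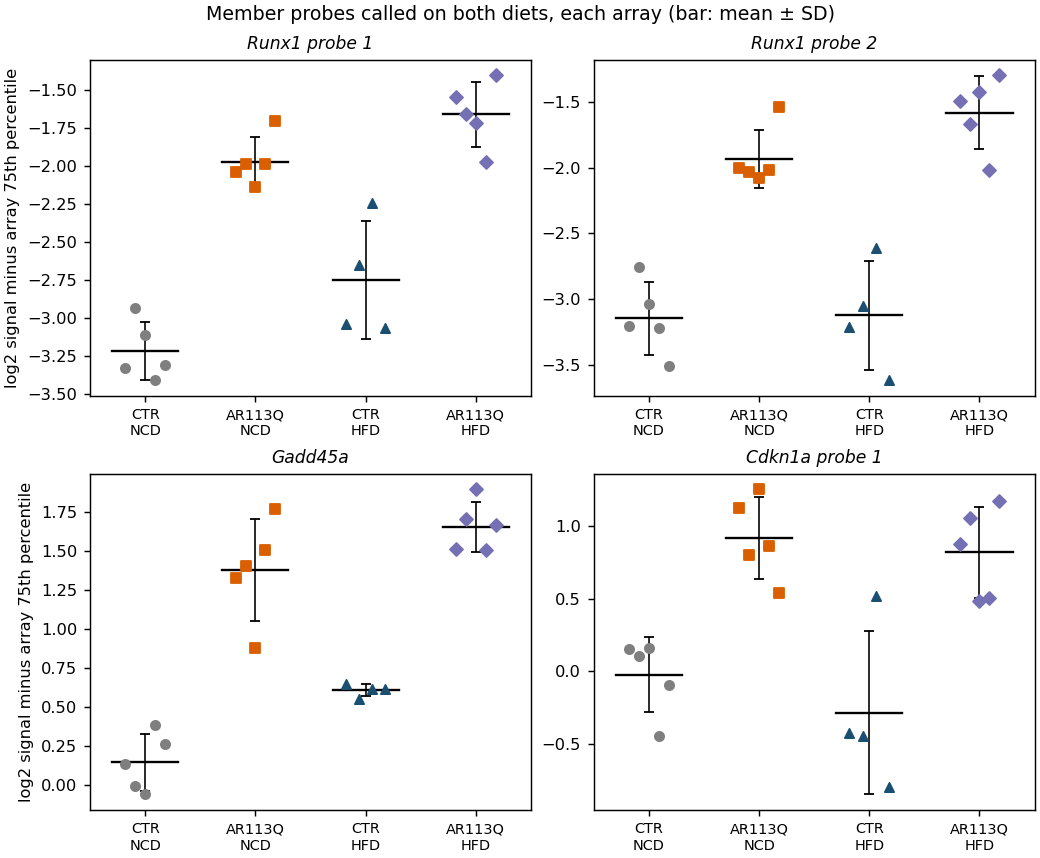
Relative level (log2 signal minus the 75th percentile of the array, vertical axis) of the 4 probes called on both diets, Runx1 probes 1 and 2, Gadd45a and Cdkn1a probe 1, on each array of the 4 groups; bars are the mean and SD. The AR113Q samples lie above the CTR samples of the same diet for Runx1 and Gadd45a, and for Cdkn1a a single CTR-HFD array (0.52) reaches into the AR113Q-HFD range.

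Promoters of the genes that rose are printed below to show what sequence they share and where they differ. They are the 250 bases before the start, 5′ to 3′ on the strand of the gene, from RefSeq on GRCm38.p6, where 6 of the 7 genes had an entry, with 10 promoters in all. In Runx1 and Gadd45a, capitals mark the general E-box CANNTG, a class of motif that includes sites bound by myogenin and MYOD1. The p53 half-site match of Gadd45a is not marked. In Cdkn1a promoter 1, capitals mark matches to the p53 half-site, and in Cdkn1a promoter 2 the E-box.
Runx1 promoter 1, chr16:92826075-92826324, minus strand: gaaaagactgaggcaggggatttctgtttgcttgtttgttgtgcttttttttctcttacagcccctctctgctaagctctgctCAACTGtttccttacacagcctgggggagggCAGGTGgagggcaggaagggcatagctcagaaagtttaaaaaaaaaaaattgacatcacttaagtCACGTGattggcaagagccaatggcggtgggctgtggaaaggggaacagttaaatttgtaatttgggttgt
Gadd45a promoter 1, chr6:67037408-67037657, minus strand: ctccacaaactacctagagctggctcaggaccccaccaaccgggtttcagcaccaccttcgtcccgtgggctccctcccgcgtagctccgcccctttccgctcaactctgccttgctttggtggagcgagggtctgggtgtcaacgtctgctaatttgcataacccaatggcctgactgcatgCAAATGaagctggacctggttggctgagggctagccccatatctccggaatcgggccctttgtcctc
Cdkn1a promoter 1, chr17:29090729-29090978, plus strand: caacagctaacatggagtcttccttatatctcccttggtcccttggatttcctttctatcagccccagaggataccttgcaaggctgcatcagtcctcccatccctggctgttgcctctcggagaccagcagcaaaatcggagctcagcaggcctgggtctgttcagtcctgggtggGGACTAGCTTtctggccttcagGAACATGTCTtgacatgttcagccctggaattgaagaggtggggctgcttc
Cdkn1a promoter 2, chr17:29093519-29093768, plus strand: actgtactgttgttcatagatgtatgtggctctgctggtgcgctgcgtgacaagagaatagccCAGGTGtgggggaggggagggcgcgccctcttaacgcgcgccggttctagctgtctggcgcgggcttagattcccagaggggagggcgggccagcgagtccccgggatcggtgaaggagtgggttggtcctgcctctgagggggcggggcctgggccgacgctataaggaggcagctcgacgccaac
Runx1 promoter 1 held 3 E-boxes, Gadd45a and Cdkn1a promoter 2 held 1 each, and the downstream Runx1 promoter 2 (chr16:92697330-92697579) and Cdkn1a promoter 1 held 0. On both strands, 66.2% of 32851 RefSeq promoters of the same length held at least 1 E-box, so most promoters hold this motif. The p53 half-site was found in 7.13% of promoters, among them Cdkn1a promoter 1 with 2 matches, Gadd45a with 1 and Hdac9 promoter 1 with 1. The RUNX core TGTGGT (14% of promoters) was found in Dach2 promoter 2 alone of the 10, and both the AP-1 motif TGANTCA (6.75%) and a MEF2-type motif (3.2%) in Hdac9 promoter 2 alone. A match is a description of the letters, and none was tested for binding.

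Ncam1 was called on HFD and, in the fit of all 4 groups, missed the threshold on NCD. Its 3 probes list different transcripts. Probe 2 lists all 3 RefSeq transcripts named by the array and lies on chromosome 9 (chr9:49351182-49351241, minus strand of mm9), and it is printed as the probe that reads the gene as a whole.
Ncam1 probe 2: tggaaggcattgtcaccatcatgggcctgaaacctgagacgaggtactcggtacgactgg
Probe 1 lists 1 of the 3 transcripts and probe 3 the other two. Probe 2 read -1.85, -1.65, -1.68, -1.83 and -1.94 in CTR-NCD and -1.89, -1.81, -1.59, -1.96 and -1.75 in AR113Q-NCD. It read -1.74, -2.03, -1.75 and -2.05 in CTR-HFD and -1.22, -1.35, -1.61, -1.56 and -0.85 in AR113Q-HFD. The NCD groups lay on top of each other, and on HFD all AR113Q samples were above all CTR samples. The difference was -0.012 ± 0.13 on NCD (95% interval -0.28 to 0.25, adjusted p = 0.969) and 0.58 ± 0.13 on HFD (0.30 to 0.86, adjusted p = 0.00556), a 1.49-fold higher level.

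Ncam1 probe 1 read -2.15, -2.13, -2.07, -2.0 and -2.17 in CTR-NCD and -1.79, -2.04, -1.60, -1.31 and -1.62 in AR113Q-NCD. It read -2.07, -2.04, -1.57 and -1.99 in CTR-HFD and -0.80, -1.09, -1.65, -1.21 and -0.27 in AR113Q-HFD. A single AR113Q sample fell within the CTR range on each diet, and AR113Q-HFD replicate 5 was the highest sample for all 3 probes. The difference was 0.43 ± 0.19 on NCD (95% interval 0.020 to 0.84, adjusted p = 0.153, but called with adjusted p = 0.0408 in a fit of the NCD groups alone) and 0.91 ± 0.21 on HFD (0.48 to 1.35, adjusted p = 0.00497, 1.88-fold). Probe 3 differed by 0.13 ± 0.17 on NCD (adjusted p = 0.691) and 0.55 ± 0.18 on HFD (0.17 to 0.93, adjusted p = 0.0423, 1.46-fold), with overlap on both diets. The call of probe 3 on HFD was lost when any of 7 arrays was left out, with adjusted p from 0.0509 without AR113Q-NCD replicate 3, 0.0512 without AR113Q-NCD replicate 5 and 0.0515 without CTR-NCD replicate 4 to 0.0913 without CTR-HFD replicate 4, 0.0966 without AR113Q-HFD replicate 1, 0.11 without AR113Q-HFD replicate 5 and 0.156 without CTR-HFD replicate 2. In a fit of the HFD groups alone, all 3 probes missed the threshold (adjusted p = 0.0565, 0.058 and 0.132), as they did with normexp correction.

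**Figure D4:**
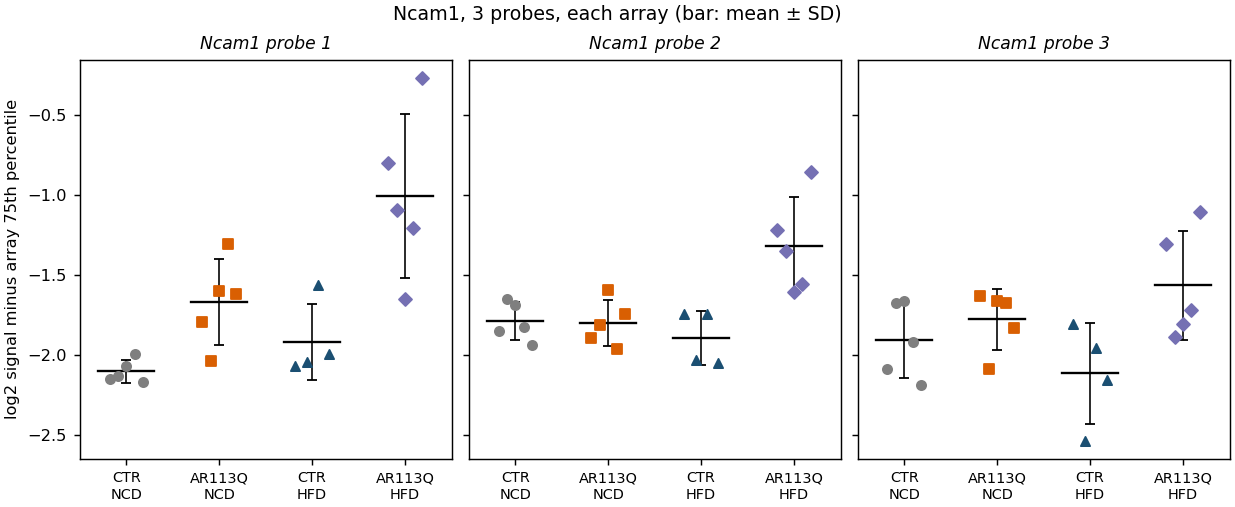
Relative level (log2 signal minus the 75th percentile of the array, vertical axis) of the 3 Ncam1 probes on each array of the 4 groups; bars are the mean and SD. AR113Q-HFD is the highest group for each probe, with means of -1.0, -1.32 and -1.56, and AR113Q-NCD (-1.67, -1.80 and -1.78) overlaps CTR-NCD.

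A call on HFD alone does not show that the genotype effect differed between diets. The genotype by diet interaction of the 3 probes was 0.48, 0.59 and 0.42 log2 units, with adjusted p of 1, 0.914 and 1, and for probe 2 an unadjusted p of 0.00507 (95% interval 0.20 to 0.97). Ncam1 is also made by Schwann cells and satellite cells. Among 6 Schwann cell markers, all well above background on every array, S100b was called higher on NCD (0.58, adjusted p = 0.00521) and none was called on HFD. The log2 summed relative level of that list on NCD was 1.51 to 1.93 in CTR and 1.91 to 2.26 in AR113Q. On HFD it was 1.60 to 2.07 in CTR and 1.63 to 2.09 in AR113Q. These ranges overlapped on both diets, and the sums were not tested. Of 4 satellite cell markers, Myf5 was not well above background on any array and was not tested. Calcr was called higher and Cdh15 lower on NCD, Pax7 was called on neither diet, and none was called on HFD. Of all probes tested, 17.6% were called in either direction on NCD and 17.9% on HFD. The summed level of the satellite cell markers, Myf5 included, was 2.42 to 2.65 in CTR and 2.12 to 2.37 in AR113Q on NCD. On HFD it was 2.25 to 2.78 in CTR and 2.29 to 2.44 in AR113Q. The ranges lay apart on NCD, with AR113Q lower, and overlapped on HFD, and these sums were not tested either. In bulk muscle a change in the number of cells of a type and in the RNA per cell cannot be told apart, and the part of these cells in the Ncam1 levels was not tested.

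Diet alone called no probe of these genes. Between HFD and NCD, 0 of 15 probes were called in AR113Q mice in limma, against 0.025% of all probes. An unadjusted p below 0.05 was found for 3 of the 15, and for 2155 of all 32026 probes tested. In CTR mice 0 of 15 were called, against 0% of all probes, and 2 of the 15 and 2775 of all 32026 probes had an unadjusted p below 0.05. The interaction called 0 of 15, against 0%, and 1 of the 15 and 1489 of all 32026 probes had an unadjusted p below 0.05. The nearest to the threshold was Gadd45a in CTR mice, where all 4 HFD samples were above all 5 NCD samples (0.46, 95% interval 0.17 to 0.76, adjusted p = 0.372, unadjusted p = 0.00423). In AR113Q mice the nearest was Ncam1 probe 2 (0.48, 0.22 to 0.75, adjusted p = 0.378, unadjusted p = 0.00127), followed by Ncam1 probe 1 (0.67, adjusted p = 0.465, unadjusted p = 0.00335). For Gadd45a and for Runx1 probe 1 the order of the group means, from the lowest, was that of CTR mice on NCD, CTR mice on HFD, AR113Q mice on NCD and AR113Q mice on HFD. The steps with diet in this order were not called, and the samples of CTR-HFD and AR113Q-NCD did not overlap, a step that was not tested. The diet comparisons share their arrays with those of genotype and are not independent of them.

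Within the groups, members moved together in different ways. Over the deviations of the 19 arrays from their group means, the Runx1 probes had a Pearson r of 0.894 with each other, and Runx1 probe 1 had 0.0948 with Gadd45a. Hdac4 and Cdkn1a probe 1 had an r of -0.791, with CTR-HFD replicate 3 the lowest of its group for Hdac4 and the highest for Cdkn1a. Of the 13 member probes well above background on all arrays, CTR-HFD replicate 3 was the highest of its group for 6, AR113Q-HFD replicate 3 the lowest of its group for 7 and AR113Q-HFD replicate 5 the highest for 8. These pairs were picked after their values were seen, and values on 1 array share its RNA and labelling, so the coefficients are descriptions.

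Genes elsewhere on the array with the pattern most like each called probe were found by Pearson r over the 19 arrays, which share the group differences. For Runx1 probe 1 they were 5730419F03Rik (0.972), Ocel1 (0.972) and Iqcc (0.968), and for probe 2 Eid1 (0.982), Flrt2 (0.972) and Tcf4 (0.97). For Gadd45a they were Ctf1 (0.975), Eid2b (0.963) and Slc23a3 (0.959), and for Cdkn1a probe 1 Hspa2 (0.964), Got2 (0.962) and Casq2 (0.961). The likeness was lower for Ncam1, whose nearest genes were Ppp1r26 (0.895), Cep164 (0.892) and Nrcam (0.892) for probe 1, Ccdc136 (0.859), Tec (0.847) and Slc10a3 (0.839) for probe 2 and Serinc5 (0.884), Brsk1 (0.877) and Hk1 (0.874) for probe 3. No gene was named by more than 1 of the 7 probes.

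Other genes of the same signalling were read by the brightest probe of each gene. Of 16 genes known to rise after denervation, 4 were called higher and 2 lower in AR113Q on NCD. On HFD 6 were called higher and 3 lower, and the median difference was 0.27 on NCD and 0.37 on HFD. Of all probes tested, 8.29% were called higher and 9.28% lower on NCD, and 8% and 9.93% on HFD. Among the synaptic genes of the list, Chrna1, the alpha subunit of the acetylcholine receptor, rose by 1.51 on NCD (adjusted p = 6.17e-06) and 1.99 on HFD (adjusted p = 1.2e-06), and Musk, the kinase that clusters the receptors, by 0.79 (adjusted p = 0.00572) and 1.22 (adjusted p = 0.000285). Myog itself, the factor that Dach2 represses, rose by 0.82 on NCD (adjusted p = 0.00836) and 0.70 on HFD (adjusted p = 0.0288). Sln, the sarcolipin regulator of the calcium pump, rose by 3.40 (adjusted p = 0.00117) and 3.74 (adjusted p = 0.000856). Of the 4 ubiquitin ligase genes of the list, 2 were called lower. Fbxo32 fell by 1.76 on NCD (adjusted p = 1.17e-05) and 1.69 on HFD (adjusted p = 3.03e-05), and Trim63 fell by 0.65 (adjusted p = 0.00234) and 0.50 (adjusted p = 0.0189). The HFD call of Trim63 was lost with quantile normalization (-0.35, adjusted p = 0.0691), median centring (-0.44, adjusted p = 0.169) and normexp (-0.52, adjusted p = 0.388), and its NCD call with normexp (-0.35, adjusted p = 0.184). On HFD Ankrd1 (2.52, adjusted p = 0.00495) and Chrnb1 (0.99, adjusted p = 0.000746) were also called higher and the perinatal myosin Myh8 lower (-0.37, adjusted p = 0.00966), the last of these turning to 0.069 after quantile normalization. Of the 3 genes called lower on HFD, 1 was called with quantile normalization, median centring or normexp. Myog was not called on HFD with median centring (0.77, adjusted p = 0.0502) or on either diet with normexp (0.16, adjusted p = 0.54 on NCD, and 0.59, adjusted p = 0.3 on HFD). Myod1, Chrnd, Chrng, Fbxo30, Fbxo21, Myh3 and Cdh2 were called on neither diet.

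**Figure D5:**
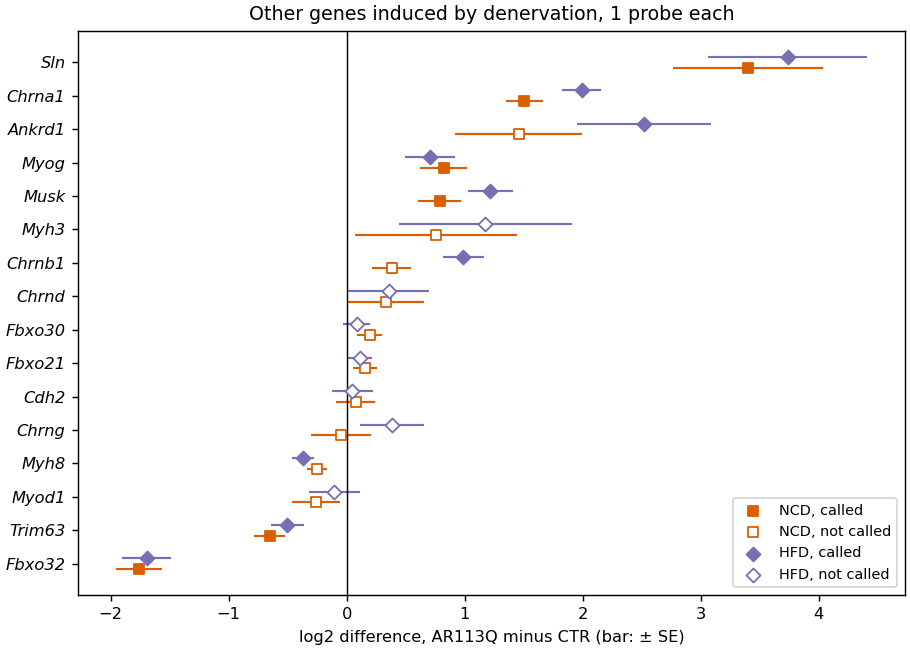
Log2 difference between AR113Q and CTR of the 16 denervation-induced genes, by the brightest probe of each, on NCD and HFD; bars are the SE and filled symbols mark called genes. Sln (3.40 and 3.74) and Chrna1 (1.51 and 1.99) lie on the higher side and Fbxo32 (-1.76 and -1.69) on the lower side on both diets.

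Of 20 MEF2 factors, other class IIa deacetylases, corepressors and kinases, 3 were called on each diet, beside 17.6% of all probes on NCD and 17.9% on HFD, with a median difference of 0.070 on NCD and 0.054 on HFD. Camk2a, a calcium-dependent kinase that exports class IIa deacetylases from the nucleus, was lower on both diets (-0.91, adjusted p = 0.000717, and -0.73, adjusted p = 0.0058). Hdac5, a relative of Hdac4, was higher on NCD by 0.26 (adjusted p = 0.0173), as was the kinase gene Prkd2 by 0.41 (adjusted p = 0.0196), and on HFD Camk2d was higher by 0.42 (adjusted p = 0.0116) and Hdac3 differed by -0.36 (adjusted p = 0.0139). Counts in this list moved with the scaling: quantile normalization gave 4 higher and 1 lower on NCD and 6 higher and 2 lower on HFD, and median centring and normexp each gave 0 higher and 1 lower on each diet.

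Of 12 tested genes related to the members by family or function, 2 were called higher and 1 lower on NCD, and 2 higher and 2 lower on HFD. This stands beside 17.6% of all probes called in either direction on NCD and 17.9% on HFD. The median difference of these 12 genes was -0.18 on NCD and -0.17 on HFD. Runx1t1, which encodes a corepressor known as a fusion partner of RUNX1, rose by 0.46 (adjusted p = 0.0178) and 0.86 (adjusted p = 0.000299), and Cdkn1c, another inhibitor of cyclin-dependent kinases, by 0.33 on NCD (adjusted p = 0.0102) and 0.33 on HFD (adjusted p = 0.0146). Gadd45b, a stress gene of the same family as Gadd45a, was lower on NCD (-0.46, adjusted p = 0.0268), and on HFD Runx3 (-0.90, adjusted p = 0.0281) and the sialyltransferase gene St8sia4 (-0.44, adjusted p = 0.0195), whose product modifies NCAM1, were lower. These counts moved with the scaling, with 1 higher and 0 lower on NCD and 1 higher and 1 lower on HFD after median centring, and 0 called on NCD and 1 higher and 0 lower on HFD with normexp.

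Genes of the p53 and ATF4 stress responses, which can induce Cdkn1a and Gadd45a, were also listed. Of 15 tested, 2 were higher and 2 lower on NCD, and 2 higher and 4 lower on HFD, with medians of -0.077 and -0.041. Of all probes tested, 17.6% were called in either direction on NCD and 17.9% on HFD. Ddit3, a stress-induced factor downstream of ATF4, rose on both diets (0.64, adjusted p = 0.00698, and 0.61, adjusted p = 0.0143), and Sesn1 rose on NCD (0.55, adjusted p = 0.000954) and Eda2r on HFD (0.77, adjusted p = 0.0175). Mdm2 (-0.28, adjusted p = 0.0255, and -0.28, adjusted p = 0.0306) and Aen (-0.39, adjusted p = 0.00214, and -0.64, adjusted p = 4.72e-05) were lower on both diets. On HFD so were Ccng1 (-0.39, adjusted p = 0.0111) and Atf4 (-0.34, adjusted p = 0.0187). The lower calls moved with the scaling: on NCD there were 2 with quantile normalization and 0 with median centring or normexp, and on HFD 2, 1 and 0. Higher calls were 2 on each diet except with normexp, which gave 1 on NCD and 0 on HFD. No gene of these 4 lists was called in the diet comparisons or in the interaction.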

How the data were processed

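Total RNA of 19 quadriceps samples was labelled with Cy3 and hybridized to Agilent mouse arrays with 60-base probes, and the authors extracted spot intensity with Agilent Feature Extraction 10.7.3.1 (version from the submitters' processing notes, which also name limma). The deposited scanner files give the processed intensity of each spot, after background subtraction, on a linear scale. The deposited value table of the series holds log2 values of the same arrays and was used as an alternative.

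Each processed signal was taken to log2, outlier spots were dropped, the remaining spots of a probe were averaged, and levels were set relative to the 75th percentile of the array. A probe entered the test when a share of 0.5 or more of its spots passed as well above background, on a minimum of 4 arrays. A linear model of the 4 group means was fitted to all probes tested in limma 3.58.1 (R 4.3.3) with empirical Bayes moderation. Benjamini-Hochberg adjustment was made within each comparison over all probes tested, and not across comparisons (called below 0.05). The script was tested on simulated data. The fit was repeated with other scalings (quantile, median), normexp correction of background, no filter or a stricter one, slide or replicate number as a block, array weights, robust variance, only the groups compared, and each array left out in turn. Slide is the slide number in the scanner files.

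The text names every probe of the 7 genes. From the lists of MEF2 and deacetylase partners, genes related to the members, denervation-induced genes, p53 and ATF4 genes and cell type markers, it names called genes. For each called probe it also names the 3 genes with the highest Pearson r. A gene of a list is given by its brightest probe. Members and lists were chosen with earlier results of these data known. A gene of the denervation list is not reported here and was left out of its counts and medians. The position of probes within exons or untranslated regions was not analysed here. The number of samples limits the precision. Probe coordinates are those of the scanner files (mm9), and promoters are from RefSeq (GRCm38.p6), so the coordinates of probes and promoters are not comparable.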

Additional observations from a re-analysis of the deposited data

Results flagged for a closer look

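Of 60 groups of 4 or 5 samples examined over the 15 probes, 2 held a sample whose distance from the nearest other sample was large for the range of its group by Dixon's criterion at the 95% level, at which chance gives about 1 in 20 groups. Runx1 probe 2 was -1.54 in AR113Q-NCD replicate 5, where the other 4 samples of the group read -2.08 to -2.01. Ncam1 probe 1 was -1.57 in CTR-HFD replicate 3, where the other 3 read -2.07 to -1.99. Without CTR-HFD replicate 3 the Ncam1 probe 1 difference on HFD was 1.03 (adjusted p = 0.00343 in limma), against 0.91 with it.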

How the results depend on the processing

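The number of the 15 probes called between genotypes was 4 on NCD and 7 on HFD, and within 1.5 times of these except with normexp background correction (2 on NCD and 2 on HFD) and in a fit of only the groups compared (4 on HFD). Leaving out single arrays gave 4 to 5 on NCD, 6 to 8 on HFD, and 0 to 0 in both diet comparisons and the interaction. Signs turned with normexp for Runx1 probe 1 (-0.056 on NCD, -0.68 for HFD against NCD in CTR), Hdac9 probe 1 (-0.36 on NCD), Dach2 probe 1 (-0.23 on NCD) and Ncam1 probe 1 (-0.18 on NCD). After normexp the 5th percentile of the signal was 286.8 to 929.6 on 5 arrays (CTR-NCD replicates 3, 4 and 5, AR113Q-NCD replicate 4 and AR113Q-HFD replicate 1) and 59.81 to 69.6 on the other 14, while the subtracted signal before correction had 18.31 to 23.16 and 14.76 to 22.48. Normexp shifted the median of all probes on NCD to -0.55. Without those 5 arrays, a setting added after the data had been seen, 3 and 8 probes were called, Cdkn1a probe 1 on NCD was 0.76 (adjusted p = 0.0815) and Hdac9 probe 1 on NCD was -0.0042. Hdac9 probe 1 on HFD was 0.022 with median centring and -0.12 to 0.11 over the arrays left out, above 0 without AR113Q-HFD replicate 3. Dach2 probe 1 on HFD was -0.55 to 0.092 over them, above 0 without CTR-HFD replicate 3. The cause of these turns was not tested. Ncam1 probe 3 on HFD also missed the threshold with median centring (adjusted p = 0.0527), no filter (0.0506) and array weights (0.0802). Of 11 called results, 339 of 362 alternative values kept the direction and the call. Of all calls, 47.2% on NCD and 44.6% on HFD were higher in AR113Q, against 53.7% and 56.7% with quantile normalization 56% and 61% with median centring, 40.3% and 35.2% with slide as a block, 25% and 17.6% with background subtracted and an offset of 50 added, and 23.1% and 15.5% with normexp without those 5 arrays. All calls numbered 5625 on NCD and 5741 on HFD, against 2388 and 2454 with median centring, 818 and 933 with normexp, 4045 and 14245 with normexp without those arrays, 9575 and 13369 with the offset, 7856 and 8960 with slide as a block, and 5034 and 3471 with only the groups compared. Dim signal limits Hdac9 probe 2 and Dach2 probe 3.

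Samples with the same replicate number mostly deviated together (19 of 27 pairs had a correlation over 0.1, median 0.237, range -0.21 to 0.54). The fit behind the calls had no block and left this shared part in the spread between samples. Slide and replicate number coincide on 18 of 19 arrays, so slide and number cannot be told apart. Of 27 pairs on the same slide 22 were over 0.1 (median 0.273). With slide as a block 5 probes were called on NCD, Hdac4 gaining the call (-0.42, adjusted p = 0.0302). On HFD 8 were called, Cdkn1a probe 2 gaining the call (-0.43, adjusted p = 0.0253). With the replicate block 5 probes were called on NCD, Hdac4 gaining the call (-0.42, adjusted p = 0.0334), and 6 on HFD, Ncam1 probe 3 losing it (0.54, adjusted p = 0.0521).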
